A study of Mus musculus with 8 samples.

Results

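Prefrontal cortex of mice that had received a virus carrying a hairpin RNA labelled for Pogz was compared with cortex of the mice injected with a green fluorescent protein (GFP) virus as their own controls. The members were the 4 libraries of that experiment of 8 in the series, 2 per group, chosen by their titles, and all 23393 named genes were taken, of which 17415 had enough counts to be tested. The mice were C57BL6/J, 6 to 8 weeks old, and all had received adeno-associated virus of serotype 9 (AAV9), which carried GFP in the controls and the hairpin in the group called shPogz here. RNA came from bulk lysate, was depleted of ribosomal RNA and made into strand-specific libraries from 1 µg, with biological duplicates per group according to the labels. The titles name Pogz, whereas the treatment label of the same samples names a hairpin against ASH1L, and the design text speaks of 3 knockdown and 2 control mice. No source used here gives the promoter that drives the hairpin, the interval after injection or a preparation batch. A second experiment of the series, with a hairpin labelled for Adnp (shAdnp) and 2 GFP controls of its own, entered the shared estimate of spread between libraries and the test of whether the responses differed.

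Pogz encodes a zinc finger protein with a transposase-derived domain that binds heterochromatin protein 1 and works with Adnp in gene silencing, and mutations of either gene in people cause neurodevelopmental disorders. Interferons are secreted when cells sense foreign nucleic acid. They act through cell surface receptors, Janus kinases and STAT transcription factors, which switch on antiviral genes through promoter elements. A separate pathway, the integrated stress response, raises the transcription factor ATF4, which drives genes for amino acid uptake and synthesis.

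Named genes held 27501722 and 69002749 counts in the GFP controls (replicates 1 and 2) and 41560029 and 35164558 counts in shPogz. The library of shPogz replicate 2 stood apart. Its log2 levels differed from the mean of the controls with an SD of 0.678 over the tested genes, against 0.417 for shPogz replicate 1 and 0.556 between the controls, and 1315 genes lay more than 1 log2 unit above that mean, against 500 for replicate 1. Markers that define cortical tissue were abundant in every library. The excitatory neuron transporter Slc17a7 stood at 921 and 1063 CPM (read counts scaled to a common library size by TMM) with GFP and 979.6 and 741 CPM with the hairpin. The choroid plexus transcript Ttr was at most 1.34 CPM in the 4 libraries. The striatal markers Drd2 and Adora2a lay above the controls in both shPogz libraries and are given below. The T cell gene Cd3e was at most 1.99 CPM, while the leukocyte genes Cd8a and Gzmb reached 10.8 and 11.8 CPM in shPogz replicate 2. Results that rest on shPogz replicate 2 are also given without it.

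The targeted gene was examined first. Pogz (chromosome 3, 94837567 to 94882326 on the plus strand, GRCm38) stood at 54.4 and 53.1 CPM with GFP and 49 and 37.3 CPM with the hairpin. Both shPogz libraries lay below both controls, replicate 1 by a small margin, with a log2 fold change of -0.32 and an SE of 0.16 (adjusted p = 0.667 in edgeR). The value was -0.11 without shPogz replicate 2. Ash1l, the histone methyltransferase gene named in the treatment label, stood at 243 and 288 CPM with GFP and 299 and 273 CPM with the hairpin, with overlapping groups. Adnp stood at 116 and 135 CPM with GFP and 131 and 102 CPM with the hairpin, also with overlap. By this test a lower level of Pogz was not detectable with 2 libraries a side. The adjusted p of 0.667 was also the smallest of any tested gene, so it does not judge Pogz by itself. Without adjustment Pogz did not reach p under 0.05 in edgeR either. Groups are named as the titles name them.

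No gene passed edgeR's quasi-likelihood test after Benjamini-Hochberg adjustment over the 17415 genes (0 called at 0.05; smallest adjusted p = 0.667). Without adjustment, 1167 genes (6.7%) reached p under 0.05, with 706 (4.05%) on the higher side in shPogz and 461 (2.65%) on the lower. DESeq2 put 1316 genes past that unadjusted p, 934 of them on the higher side. Over all tested genes, 46.4% had a log2 fold change above 0 and 53.6% one below 0. DESeq2 with the same 8 libraries called 100 genes at an adjusted p under 0.05 (0.574%), all higher in shPogz, and limma-voom called 0. All 100 of DESeq2's genes had both shPogz libraries above both controls, and in all 100 shPogz replicate 2 was above replicate 1. Leaving out a shPogz library left 1 library in that group, so the spread then came from the other groups. Such fits called far more genes without replicate 1 than without replicate 2, and their counts are not given. Of the 100 genes, 24 were members of the interferon lists used here, 15 more of the other immune and glial lists, and 6 of the ATF4 list.

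The 12 genes with the smallest p on the higher side were taken from those with both shPogz libraries above both controls. Of these 12, 3 were in the ATF4 list, 1 in an interferon list and 1 in the list of inflammasome genes. Chac1 degrades glutathione and is a target of ATF4. It stood at 6.44 and 6.91 CPM with GFP and 11.9 and 24 CPM with the hairpin (log2 fold change 1.42, SE 0.28). Isg20, an interferon-induced exonuclease, stood at 1.63 and 1.55 CPM against 3.58 and 7.83 CPM (1.84, SE 0.39). Upp1, which cleaves uridine, stood at 2.23 and 1.81 CPM against 4.16 and 8.25 CPM (1.63, SE 0.34). In each of the 3 genes shPogz replicate 2 was, on a log scale, about as far above replicate 1 as that was above the controls. Their close controls and separated groups follow in part from how the genes were chosen. The other 9 were Trib3 and Eif4ebp1 of the ATF4 pathway, the inflammatory caspase Casp4, the autophagy gene Dram1, the myeloid receptor Clec5a, the survival factor Bcl2a1a, the stress gene Gadd45g, the chemokine-binding receptor Ccrl2, and Gm5431. Their log2 fold changes ran from 0.97 for Gadd45g to 2.6 for Gm5431. Bcl2a1a has near-identical copies, so its value is uncertain. DESeq2 called 11 of the 12, Bcl2a1a being the exception.

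**Figure D1:**
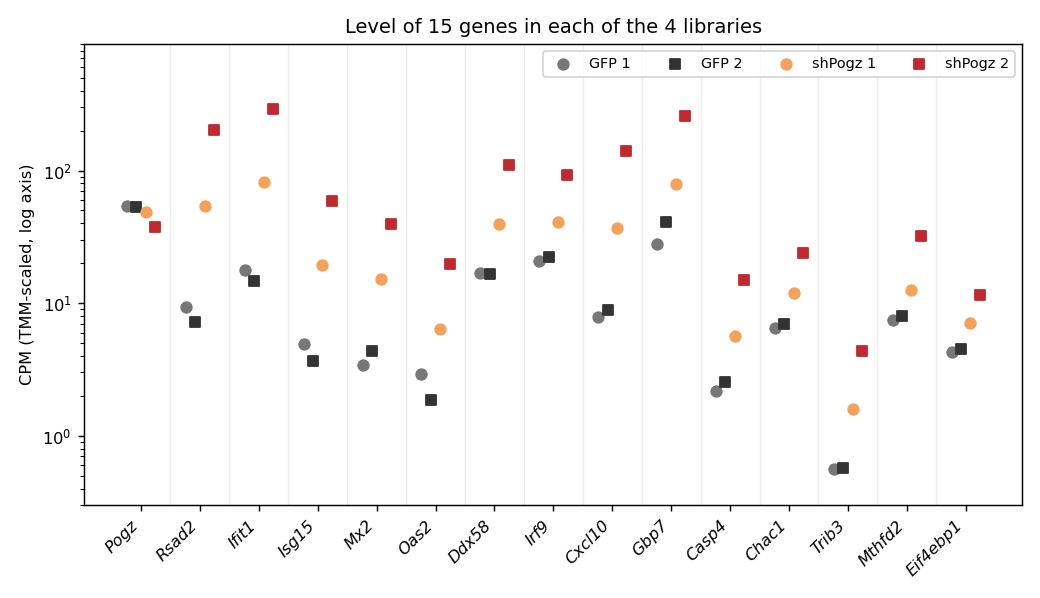
Level of 15 genes in each of the 4 libraries, as TMM-scaled CPM on a log axis, with grey and black points for the GFP controls and orange and red points for shPogz. In the 14 genes other than Pogz, both shPogz libraries lie above both controls and replicate 2 lies above replicate 1; Pogz runs from 54.4 CPM in GFP replicate 1 to 37.3 CPM in shPogz replicate 2.

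The interferon pathway was followed from ligand to target. The type I interferon gene Ifnb1 was too low for the test and was looked at after the other values were seen. It had 0 counts in both controls, 6 in shPogz replicate 1 and 36 in replicate 2. Its share of counts in shPogz was 17.6-fold above the limit that a count of 0 allows (3 counts over the control group). That value allows for counting error in the controls only, not for that of the shPogz counts. With shPogz replicate 1 alone, which rests on 6 counts, the share was 4.64-fold above that limit. Against the limit for GFP replicate 1 alone it was 5.02-fold above. In the shAdnp experiment Ifnb1 had 0 counts in both controls and 2 in each shAdnp library. The 12 genes for alpha interferons together held 12 counts in the controls and 9 in shPogz, and 4 of them had any count. The type II gene Ifng had 6 and 32 counts in the controls and 24 and 69 in shPogz, or 0.212 and 0.455 CPM against 0.561 and 1.81 CPM.

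Among 20 tested genes for sensors of foreign nucleic acid and their adaptors, 14 had both shPogz libraries above both controls (19% of all tested genes did), 1 had both below, and 10 were higher at an unadjusted p under 0.05. The list's median log2 fold change was 0.87, against -0.022 over all tested genes, and 0.34 without shPogz replicate 2. Ddx58, which encodes the RNA sensor RIG-I, stood at 16.9 and 16.7 CPM against 39.8 and 109 CPM (2.15, SE 0.56). Ifih1, the gene of the long double-stranded RNA sensor MDA5, stood at 20.6 and 20.5 CPM with GFP and 44.2 and 117 CPM with the hairpin (1.98, SE 0.55). Eif2ak2, the RNA-activated kinase PKR, stood at 19.8 and 20.03 CPM against 44.8 and 120.5 CPM (2.05, SE 0.52). The controls of each of these 3 genes were nearly equal, and both shPogz libraries stood clear of them. Tmem173 (STING), the adaptor of DNA sensing, stood at 7.07 and 10.7 CPM against 12 and 21.5 CPM, a smaller distance (0.9, SE 0.33). The nuclease subunit Rnaseh2a was the member with both shPogz libraries below the controls (17.1 and 18.3 against 15.3 and 14.7 CPM).

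The receptors and factors that carry the signal had 19 tested genes, of which 16 were above the controls in both libraries and 8 were higher at an unadjusted p under 0.05, with a median of 0.88 (0.42 without shPogz replicate 2). The receptor chain Ifnar2 stood at 19.1 and 21.2 CPM against 25.2 and 35.5 CPM (0.59, SE 0.18), and the kinase gene Jak2 at 71 and 80.2 CPM with GFP and 82.3 and 112 CPM with the hairpin (0.36, SE 0.15). Genes of the factors that bind interferon response elements lay further apart. Stat2 stood at 31.1 and 37.9 CPM against 55.5 and 131 CPM (1.43, SE 0.48). Irf9 stood at 20.9 and 22.5 CPM against 40.9 and 92.5 CPM (1.62, SE 0.58). These factor genes had larger fold changes than the receptor and kinase genes given here, and Ifngr2, a chain of the interferon gamma receptor, was the member with both shPogz libraries below the controls (60.1 and 57.3 against 56 and 56.6 CPM). Socs3, a feedback inhibitor of Janus kinases, stood at 5.87 and 8.07 CPM against 9.26 and 22.2 CPM (1.16, SE 0.41).

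Antiviral effector genes formed the longest interferon list. All 48 tested members (of 52 named) had both shPogz libraries above both controls, and 40 were higher at an unadjusted p under 0.05. DESeq2 called 18 of the 48 (37.5%). The median log2 fold change was 1.85, with a range from 0.39 to 3.96. The median was 1.08 in shPogz replicate 1 and 2.36 in replicate 2 against the mean of the controls, while the controls differed from each other by 0.15. All 48 were higher in replicate 2 than in replicate 1. Among all tested genes, 48.9% were.

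The member with the largest fold change was Rsad2 (viperin), which makes a chain-terminating nucleotide, at 9.41 and 7.22 CPM with GFP and 54.2 and 203 CPM with the hairpin (3.96, SE 0.82). Mx2, of a family of dynamin-like antiviral GTPases, stood at 3.43 and 4.36 CPM against 15.1 and 39.5 CPM (2.79, SE 0.65). The gene annotation lists Mx2 as a polymorphic pseudogene, and whether these mice make a working product was not tested. Trim21, a receptor for antibody-coated virus in the cytosol, stood at 7.39 and 10.01 CPM against 23.8 and 66.5 CPM (2.36, SE 0.57). In each, shPogz replicate 1 was already clear of both controls. Ifit1, which binds viral RNA ends, and Isg15, a ubiquitin-like modifier, were named after their values were seen because their promoters were examined. Ifit1 stood at 17.8 and 14.6 CPM against 82.5 and 293 CPM (3.54, SE 0.95), and Isg15 at 4.95 and 3.67 CPM with GFP and 19.4 and 59.3 CPM with the hairpin (3.21, SE 0.90). Nmi, which partners STAT factors, Lgals9, a secreted galectin, and Slfn9, of a family with near-identical copies, had log2 fold changes of 1.31 (SE 0.36), 1.55 (SE 0.41) and 2.33 (SE 0.63).

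The 9 oligoadenylate synthetase genes, whose products activate RNA decay when they meet double-stranded RNA, had the highest median of the lists, 2.84 (1.81 without shPogz replicate 2). In 8 of the 9 the groups did not overlap. Oasl1 stood at 2.12 and 2 CPM against 9.38 and 33.1 CPM (3.37, SE 0.83), and Oas3 at 2.3 and 2.53 CPM against 10.7 and 38.3 CPM (3.33, SE 1.15). The Oas1 genes lie side by side and are near-identical, so the reads of Oas1a, Oas1b, Oas1c and Oas1g may be shared. Oas1b is also listed as a polymorphic pseudogene. Oas1c differed least of these 4 (0.86, SE 0.42) and Oas1g most (3.07, SE 0.81).

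Upstream sequence of the effector genes was searched for the core of the interferon-stimulated response element (GAAA, any 2 bases, GAAA; overlapping matches counted as 1 gene) on both strands over the 250 bases before each RefSeq start (GRCm38.p6). It was found in 14 of the 40 effector genes with a promoter entry (35%), in 4 of 6 oligoadenylate synthetase genes (66.7%) and in 10 of 11 GTPase genes (90.9%). Over all 27025 genes with an entry the share was 3.46%, and over the tested genes with one it was 3.29%. The windows read 5′ to 3′ along the gene, with the letters of 1 match per window in capitals (in the reverse complement for Rsad2, Ifit1 and Gbp7). Further matches in the windows of Ifit1 and Isg15 were left in lower case where they lie outside the capitals. Rsad2, Ifit1, Isg15 and Oas3 are shown as the members of the effector and synthetase lists with the largest fold changes that hold the letters, and Gbp7 as a GTPase gene described here with its level in each library. Rsad2 is at chr12:26456538-26456597 (minus strand), Ifit1 at chr19:34640779-34640838 (plus strand), Isg15 at chr4:156200850-156200909 (minus strand), Oas3 at chr5:120777700-120777759 (minus strand) and Gbp7 at chr3:142530258-142530317 (plus strand).
Rsad2: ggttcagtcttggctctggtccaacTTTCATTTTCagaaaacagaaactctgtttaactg
Ifit1: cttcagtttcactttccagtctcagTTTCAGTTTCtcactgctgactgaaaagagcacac
Isg15: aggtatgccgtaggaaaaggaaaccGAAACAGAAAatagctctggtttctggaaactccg
Oas3: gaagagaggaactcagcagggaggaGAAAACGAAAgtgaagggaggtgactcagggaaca
Gbp7: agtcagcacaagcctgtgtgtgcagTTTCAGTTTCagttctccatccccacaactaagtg
The match in capitals begins 120 bases before the start of Rsad2, 85 before that of Ifit1 and 66 before that of Isg15. It begins 75 bases before the start of Oas3 and 53 before that of Gbp7. Ifit1 has another match that begins at 104 bases, and Isg15 has others that begin at 78 and 72 and overlap. A match describes the letters in the window, and binding was not measured.

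Guanylate-binding and immunity-related GTPases, which attack the membranes of intracellular pathogens and respond strongly to interferon gamma, had both shPogz libraries above both controls in all 19 tested genes (of 20 named). At an unadjusted p under 0.05, 3 of them were higher. The median was 2.36 (1.31 without shPogz replicate 2), and GFP replicate 2 lay 0.85 above GFP replicate 1 in the median. Gbp7 stood at 27.9 and 40.8 CPM against 79.8 and 257 CPM (2.29, SE 0.81). Gbp9 stood at 12.5 and 15 CPM with GFP and 27.9 and 83.5 CPM with the hairpin (2.01, SE 0.64). Tgtp1, whose reads may be shared with Tgtp2, stood at 5.76 and 6.84 CPM against 19 and 65.2 CPM (2.73, SE 1.15). Members of the guanylate-binding cluster are near-identical in parts, so single values are uncertain.

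Class I antigen presentation, by which cells display internal peptides to T cells, had 17 of 19 tested genes above the controls in both libraries and a median of 1.11 (0.48 without shPogz replicate 2). The proteasome activator genes had small spread. Psme2 stood at 7.46 and 9.04 CPM against 12.3 and 23.5 CPM (1.11, SE 0.30), and Psme1 at 33.4 and 39.1 CPM against 50.1 and 87.4 CPM (0.92, SE 0.27). Erap1, which trims peptides, stood at 25.5 and 26.3 CPM with GFP and 33.1 and 57 CPM with the hairpin (0.8, SE 0.25). H2-T23, a nonclassical molecule with near-identical relatives, stood at 28.2 and 47.7 CPM against 65.9 and 171 CPM. Class II genes, carried by antigen-presenting cells, had a median of 1.12. It was 0.675 without GFP replicate 1, 1.73 without GFP replicate 2 and 0.5 without shPogz replicate 2. Of the 10 genes, 5 overlapped (10395 of all 17415 tested genes did) and 0 were past an unadjusted p of 0.05. H2-Aa, for example, stood at 59.8 and 112 CPM against 119.8 and 284 CPM (1.23, SE 1.17), with the controls far apart.

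Chemokines, which draw leukocytes, had 15 of 22 tested genes above the controls in both libraries, 2 below, and a median of 1.62 (0.77 without shPogz replicate 2). The attractant of monocytes Ccl2 stood at 0.495 and 1.31 CPM against 8.89 and 35.9 CPM (4.53, SE 1.07). Cxcl10, an attractant of activated T cells that interferons induce, stood at 7.85 and 8.88 CPM with GFP and 37 and 141 CPM with the hairpin (3.4, SE 1.35), and was named after its value was seen. Cxcl11, of the same receptor and also listed as a polymorphic pseudogene, stood at 0.283 and 0.284 CPM against 2.13 and 10.1 CPM (4.42, SE 1.29). In each of the 3, shPogz replicate 1 lay above both controls and replicate 2 well above replicate 1. Ccl3 and Ccl4, neighbouring chemokine genes, had log2 fold changes of 2.62 (SE 0.71) and 3.77 (SE 0.97). In the list of inflammasome and NF-kB genes all 28 lay above 0, 21 had groups that did not overlap, and the median was 0.91 (0.35 without shPogz replicate 2). Casp1, the protease that matures interleukin 1, stood at 4.46 and 4.96 CPM against 7.81 and 20.1 CPM (1.56, SE 0.45). Mlkl, which lyses cells in necroptosis, stood at 1.13 and 1.48 CPM against 2.99 and 8.98 CPM (2.18, SE 0.63). The interleukin 1 antagonist Il1rn stood at 0.495 and 0.469 CPM with GFP and 1.5 and 7.28 CPM with the hairpin (3.18, SE 0.87). All 28 were higher in shPogz replicate 2 than in replicate 1.

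Several marker lists of immune and glial cells stood higher along with the interferon lists, and their part in those results was not tested. In bulk tissue, more cells of a type and more RNA per cell cannot be told apart, nor can fewer and less. Homeostatic microglia markers lay mostly above 0. Of 20 tested, 18 lay above 0, 9 had both shPogz libraries above the controls and 1 had both below. Their median was 0.31 (0.084 without shPogz replicate 2). Their summed level was 1120 and 1150 CPM with GFP and 1210 and 1680 CPM with the hairpin. P2ry12, a receptor of resting microglia, stood at 52.1 and 50.7 CPM against 51.7 and 44.3 CPM, so that shPogz replicate 2 was the lowest library. Aif1 stood at 13.1 and 16 CPM against 19.1 and 42.4 CPM (1.07, SE 0.46). Genes of disease-associated microglia had a higher median, 0.94 (0.37 without shPogz replicate 2), with 22 of 26 above the controls in both libraries. Axl, a receptor for the clearance of dying cells, stood at 64.6 and 70.7 CPM against 86 and 143 CPM (0.76, SE 0.22). Csf1, a growth factor of microglia, stood at 24.5 and 28.2 CPM with GFP and 40.7 and 81.9 CPM with the hairpin (1.21, SE 0.34). Clec7a, a pattern receptor gene also listed as a polymorphic pseudogene, stood at 5.94 and 3.03 CPM against 11.9 and 43.6 CPM (2.67, SE 0.96). Apoe was the exception with a value below 0 (-0.12, SE 0.25; groups overlapping).

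Complement had 10 of 15 tested genes above the controls in both libraries and a median of 0.95 (0.38 without shPogz replicate 2). The 3 chains of C1q differed alike, with log2 fold changes of 0.98 (C1qa, SE 0.50), 0.97 (C1qb, SE 0.52) and 0.95 (C1qc, SE 0.47). The anaphylatoxin receptor C3ar1 stood at 6.3 and 7.97 CPM against 11.3 and 21.6 CPM (1.2, SE 0.38). Blood leukocyte markers were low. Their 26 tested genes summed to 79.5 and 155 CPM with GFP and 161 and 355 CPM with the hairpin, 11 had both shPogz libraries above the controls, and GFP replicate 2 lay 0.97 above GFP replicate 1 in the median. Among them Gzmb, a protease of cytotoxic lymphocytes, stood at 0.424 and 1.34 CPM against 3.49 and 11.8 CPM (3.03, SE 1.09), and Cd8a at 1.03 and 1.52 CPM with GFP and 3.46 and 10.8 CPM with the hairpin (2.46, SE 1.36). The B cell gene Cd79a, the neutrophil gene S100a8 and the chemokine receptor gene Cxcr3 had values below 0. Reactive astrocyte genes had a median of 0.81 (0.37 without shPogz replicate 2) and 15 of 25 above the controls in both libraries. Cxcl10, Stat3, Gbp2, Psmb8, H2-T23 and Serping1 were also members of the chemokine, interferon, class I or complement lists, so the results overlap. Cd44, a hyaluronan receptor, stood at 10.5 and 11.3 CPM against 14.4 and 27.1 CPM (0.92, SE 0.28), and the intermediate filament gene Nes at 18.4 and 15.8 CPM against 22.8 and 37 CPM (0.81, SE 0.24). Markers of resting astrocytes stood the other way: 0 of 17 lay above 0, 7 had both shPogz libraries below the controls (21.3% of all tested genes did), and the median was -0.24 (-0.043 without shPogz replicate 2). Aldh1l1, a folate enzyme, stood at 104 and 90.2 CPM against 82.3 and 71.5 CPM (-0.33, SE 0.14).

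**Figure D2:**
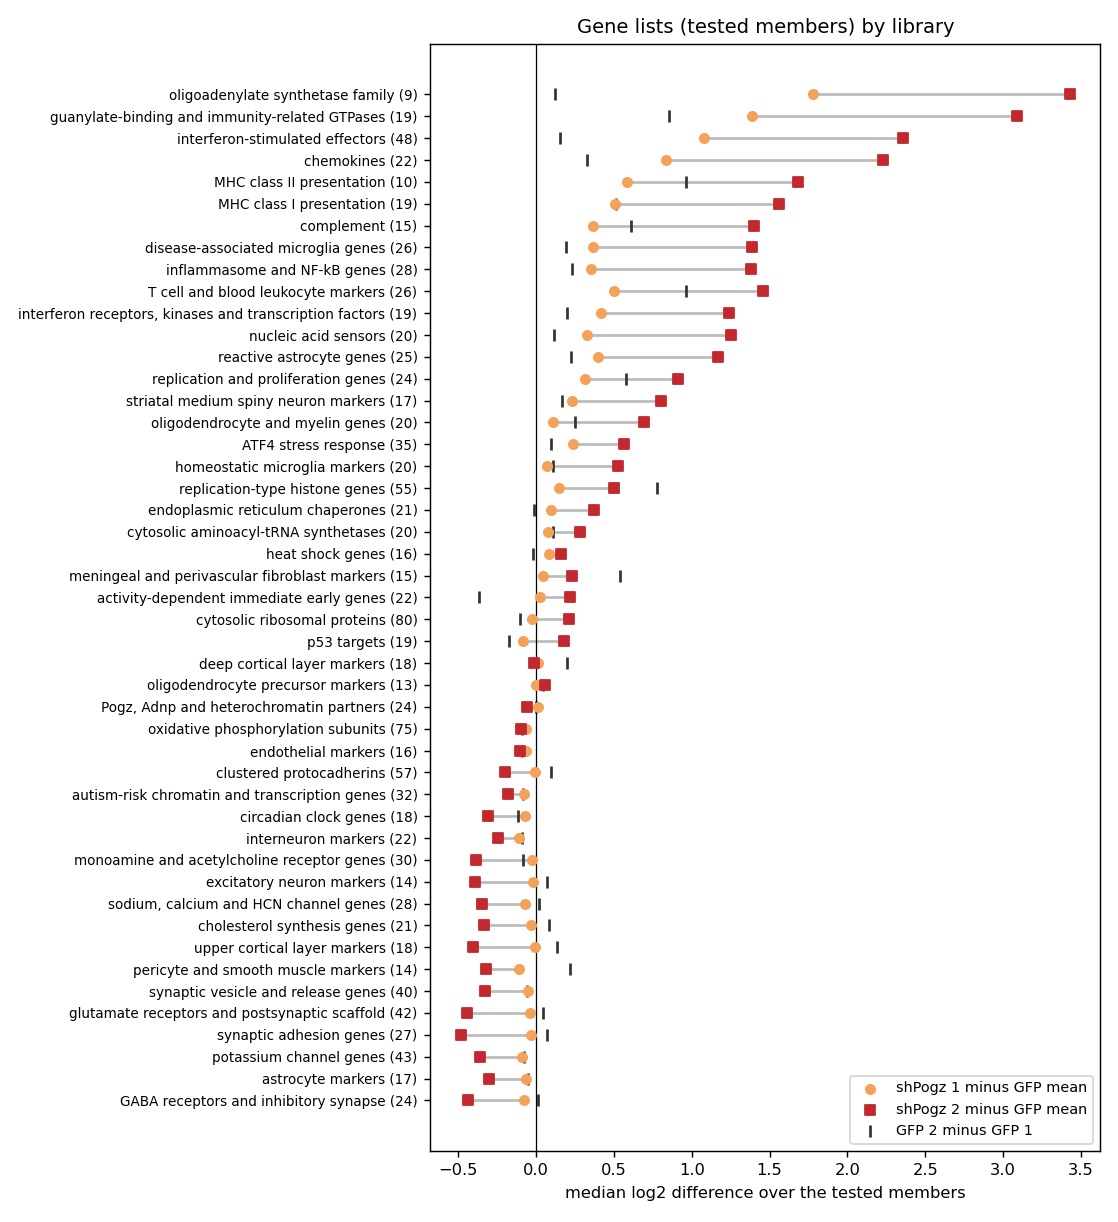
Median log2 difference of the tested members of each gene list (their number in parentheses), for shPogz replicate 1 and replicate 2 against the mean of the GFP controls, with the difference between the controls as a black tick. The oligoadenylate synthetase list lies furthest to the right, at 1.78 and 3.43, and in the lists at either end replicate 2 lies further from 0 than replicate 1.

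Genes of the ATF4 stress response lay above the controls by smaller amounts than interferon genes. Of 35 tested genes (36 named), 33 lay above 0, 26 had both shPogz libraries above both controls, 2 had both below, and 20 were higher at an unadjusted p under 0.05. The median was 0.4 (0.25 without shPogz replicate 2). Atf4 itself stood at 95.2 and 97.4 CPM with GFP and 119 and 177 CPM with the hairpin (0.62, SE 0.20) and was named after its value was seen. Trib3, a pseudokinase that dampens the response, stood at 0.566 and 0.569 CPM against 1.59 and 4.35 CPM (2.38, SE 0.51). Mthfd2, of mitochondrial one-carbon metabolism, stood at 7.5 and 8 CPM against 12.6 and 32 CPM (1.52, SE 0.39). Nupr1, a stress-induced chromatin protein, stood at 5.87 and 7.58 CPM against 10.1 and 22.2 CPM (1.25, SE 0.37). Each of these had close controls and its highest level in shPogz replicate 2. Eif4ebp1, a repressor of cap-dependent translation, stood at 4.24 and 4.49 CPM with GFP and 7.11 and 11.6 CPM with the hairpin (1.09, SE 0.24). Cth, which makes cysteine, stood at 3.4 and 3.21 CPM against 5.24 and 8.62 CPM (1.07, SE 0.26). The arginine transporter Slc7a1 stood at 50.6 and 57.8 CPM against 68.5 and 89.1 CPM (0.54, SE 0.14). The stress sensor Sesn2 had a smaller value (0.58, SE 0.17). The members on the other side were Jdp2, a repressor of AP-1 (-0.24, SE 0.11), and the leucine transporter Slc7a5 (-0.14, SE 0.094). DESeq2 called 6 of the 35, namely Chac1, Trib3, Eif4ebp1, Mthfd2, Nupr1 and Slc7a3.

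The core letters of the C/EBP-ATF response element (TGATG, any base, AA) were searched in the same 250 upstream bases on both strands. They were found in 9 of 30 ATF4-list genes with an entry (30%), in 3 of 12 tRNA synthetase genes (25%), in 4 of 40 effector genes (10%) and in 3.91% of all genes with an entry. In the tested genes the share was 2.64%. These windows are printed in the same way, with the match in capitals, in the reverse complement for all 4. Chac1 is at chr2:119351024-119351081 (plus strand), Atf3 at chr1:191183411-191183468 (minus strand), Nupr1 at chr7:126625548-126625605 (minus strand) and Tars at chr15:11399659-11399698 (minus strand). They are shown as the list members with the largest fold changes that hold the letters, and for Tars as the tRNA synthetase gene with the largest.
Chac1: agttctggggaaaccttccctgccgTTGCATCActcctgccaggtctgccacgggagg
Atf3: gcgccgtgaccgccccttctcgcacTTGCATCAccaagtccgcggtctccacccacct
Nupr1: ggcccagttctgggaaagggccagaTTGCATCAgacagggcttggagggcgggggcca
Tars: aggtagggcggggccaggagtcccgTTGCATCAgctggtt
The match begins 193, 110, 110 and 15 bases before the respective starts. Atf3, a stress-induced repressor of transcription, stood at 1.13 and 2.42 CPM against 6.83 and 19.1 CPM (2.81, SE 0.94). Jdp2 holds the letters too, and had a value below 0.

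Cytosolic aminoacyl-tRNA synthetases, which charge tRNAs and include ATF4 targets, differed by small amounts with small errors. Of 20 tested genes, 16 lay above 0, 11 had both shPogz libraries above the controls, 6 were higher at an unadjusted p under 0.05, and the median was 0.18 (0.1 without shPogz replicate 2). Cars stood at 37.7 and 46.8 CPM with GFP and 53.1 and 63.2 CPM with the hairpin (0.46, SE 0.13). Mars stood at 51.8 and 55.2 CPM against 63 and 74.8 CPM (0.37, SE 0.12). Tars stood at 42.6 and 40.7 CPM against 46.6 and 61 CPM (0.37, SE 0.14). The 4 members below 0 were Hars, Qars, Farsa and Vars, the latter pair with values of either sign across settings. Chaperones of the endoplasmic reticulum had 18 of 21 above 0 and a median of 0.21 (0.11 without shPogz replicate 2). Hspa5 (BiP), the main chaperone of that compartment, stood at 349 and 314 CPM against 396 and 556 CPM (0.52, SE 0.21), and the secreted stress factor Manf at 38.5 and 43.2 CPM with GFP and 49.4 and 66.7 CPM with the hairpin (0.51, SE 0.18). Syvn1, Sel1l and Atf6 were the 3 members below 0. Cytosolic heat shock genes had a median of 0.12 (0.219 without GFP replicate 1), with Hspb8 highest above its error (0.56, SE 0.17), and p53 targets had one of 0.037 (-0.064 without shPogz replicate 2).

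**Figure D3:**
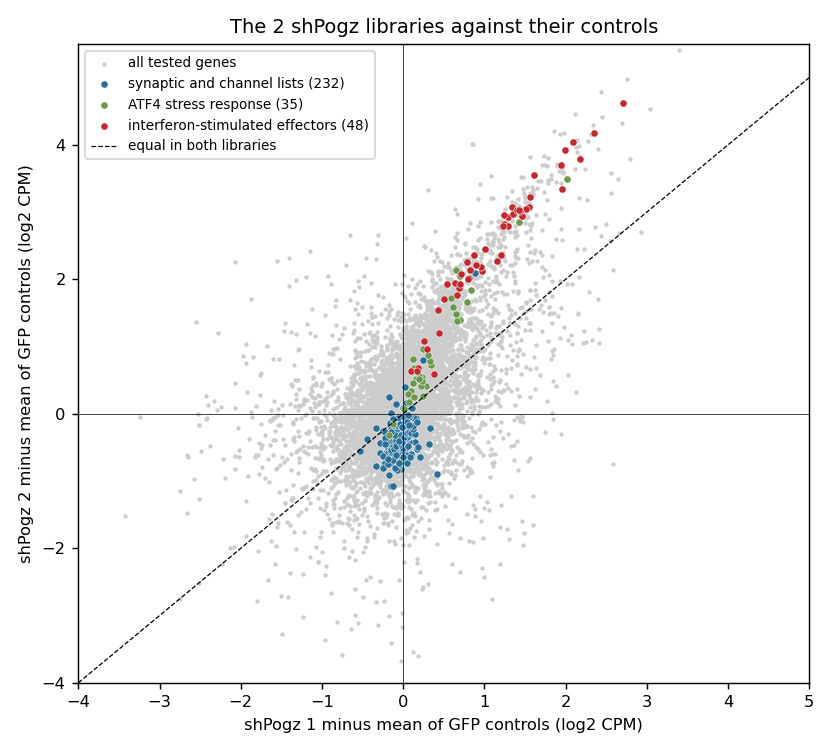
Log2 difference from the mean of the GFP controls in shPogz replicate 1 (horizontal) and replicate 2 (vertical) for all tested genes (grey), 48 interferon-stimulated effectors (red), 35 ATF4-list genes (green) and 232 genes of the synaptic, channel and receptor lists (blue). The effectors lie above the dashed line of equal differences with medians of 1.08 and 2.36, while the blue genes centre on -0.062 and -0.41.

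Genes of neuronal signalling lay slightly below the controls. The 7 lists for synapse, channels and transmitter receptors held 232 different tested genes. Of these, 213 lay below 0, 99 had both shPogz libraries below both controls (42.7%, against 21.3% of all tested genes), 16 were lower at an unadjusted p under 0.05 and 1 was higher. The median was -0.22, and by library it was -0.062 in shPogz replicate 1 and -0.41 in replicate 2. At the release site, genes of synaptic vesicles had a median of -0.22 over 40 tested (-0.04 without shPogz replicate 2). Rab3c, a vesicle GTPase, stood at 612 and 535 CPM against 514 and 387 CPM (-0.35, SE 0.15). Ppfia3, a liprin of the active zone, stood at 167 and 167 CPM against 152 and 103 CPM (-0.38, SE 0.16). In these genes shPogz replicate 1 lay just under the lower control and replicate 2 well under it.

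On the receiving side, glutamate receptor and scaffold genes had a median of -0.22 over 42 tested, 40 of them below 0 (-0.017 without shPogz replicate 2). Cacng8, an auxiliary subunit of AMPA receptors, stood at 27.4 and 27.3 CPM against 21.7 and 16 CPM (-0.54, SE 0.16). Grin2a, an NMDA receptor subunit, stood at 176 and 173 CPM with GFP and 152 and 111 CPM with the hairpin (-0.41, SE 0.20). Homer3 and Dlg1 were the members above 0. GABA receptor genes had a median of -0.25 over 24 tested, with 23 below 0 and all 24 lower in shPogz replicate 2 than in replicate 1 (-0.059 without replicate 2). Gabbr1 and Gabbr2, the chains of the metabotropic GABA receptor, had log2 fold changes of -0.4 (SE 0.15) and -0.41 (SE 0.20). Gabrg3 stood at 22 and 21.9 CPM against 19 and 16.5 CPM (-0.31, SE 0.13). Synaptic adhesion genes had a median of -0.22 over 27 (-0.013 without replicate 2), with Lrfn1 at -0.43 (SE 0.18).

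Potassium channels were the neuronal list with the most members past an unadjusted p of 0.05, 7 of 43 lower and 0 higher. In 24 of the 43 both shPogz libraries lay below both controls, and the median was -0.23 (-0.069 without shPogz replicate 2). The leak channel gene Kcnk3 stood at 23.4 and 16.1 CPM against 13.4 and 13.2 CPM (-0.57, SE 0.18). Kcnj4, an inward rectifier, stood at 147 and 149 CPM against 127 and 97.7 CPM (-0.4, SE 0.13). Kcnj3, a channel opened by G proteins, stood at 94.9 and 94.5 CPM with GFP and 82.7 and 57.3 CPM with the hairpin (-0.44, SE 0.16). Sodium, calcium and HCN channel genes had a median of -0.2 over 28 (-0.056 without shPogz replicate 2). Scn1a stood at 364 and 296 CPM against 270.04 and 244 CPM (-0.36, SE 0.15), and Scn4b was the member above 0 (0.22, SE 0.14). Monoamine and acetylcholine receptors were mixed, with a median of -0.18 over 30 (-0.012 without shPogz replicate 2). The serotonin receptor Htr1a stood at 23.6 and 24.9 CPM against 20.6 and 14.5 CPM (-0.46, SE 0.17). The dopamine receptor Drd2, also a member of the striatal list below, was low and stood above the controls. It had 0.884 and 0.952 CPM with GFP and 1.73 and 4.06 CPM with the hairpin (1.65, SE 0.47).

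**Figure D4:**
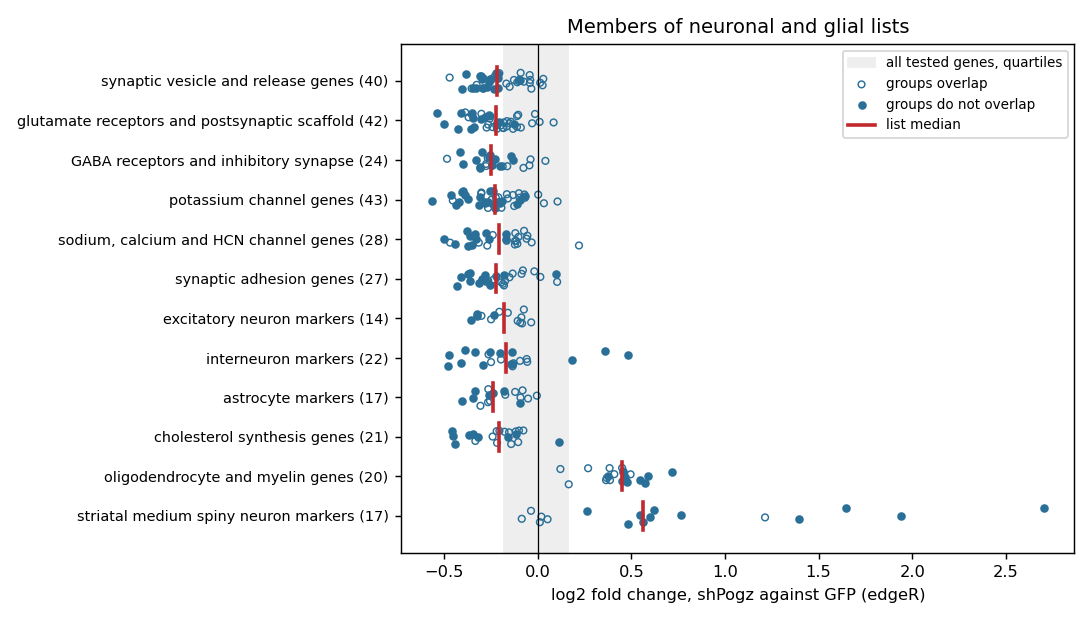
Log2 fold change of each tested member of 12 neuronal and glial lists, shPogz against GFP, with filled points where the groups do not overlap, a red bar at each list's median and the quartiles of all tested genes (-0.18 to 0.16) in grey. The synaptic, channel and astrocyte medians lie between -0.25 and -0.20, and those of the oligodendrocyte and striatal lists lie at 0.45 and 0.56.

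Markers of neuron types gave smaller counts. Excitatory markers had 0 of 14 above 0 and a median of -0.18 (-0.0051 without shPogz replicate 2). Groups overlapped in 10 of the 14, against 10395 of all 17415 tested genes. Neurod2, a transcription factor of cortical projection neurons, stood at 61.8 and 58.4 CPM against 51.6 and 44.4 CPM (-0.32, SE 0.11). Interneuron markers had a median of -0.17 over 22 (-0.1 without shPogz replicate 2), with 10 below the controls in both libraries and 3 above. The neuropeptide gene Npy stood at 104 and 80.2 CPM with GFP and 71.4 and 60.7 CPM with the hairpin (-0.48, SE 0.14). Pvalb, the calcium buffer of fast-spiking cells, stood at 42.8 and 32.3 CPM against 30.6 and 26.5 CPM (-0.39, SE 0.16). In both genes each shPogz library lay below both controls. Dlx1, Tac1 and Crh lay on the other side. Upper layer markers had a median of -0.21, which was 0.004 without shPogz replicate 2, and deep layer markers one of 0.019 (-0.0228 without shPogz replicate 1), each with most groups overlapping.

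Markers of striatal projection neurons were examined as a check of the dissected tissue. Of 17 tested (18 named), 11 had both shPogz libraries above both controls and 0 below, 6 were higher at an unadjusted p under 0.05, and the median was 0.56 (0.24 without shPogz replicate 2). The summed level was 603 and 628 CPM with GFP and 671 and 770 CPM with the hairpin. Adora2a, an adenosine receptor of striatal projection neurons, stood at 2.3 and 3.21 CPM against 4.16 and 10.5 CPM (1.4, SE 0.52). Rarb, a retinoic acid receptor, stood at 9.76 and 12.7 CPM against 14.2 and 19 CPM (0.56, SE 0.18). Pde10a, a striatal phosphodiesterase, stood at 83.5 and 71.9 CPM with GFP and 90.8 and 145 CPM with the hairpin (0.6, SE 0.23). The dissection's part in these values was not tested. Myelin and oligodendrocyte genes had 20 of 20 above 0, 9 above the controls in both libraries and 0 past an unadjusted p of 0.05, with a median of 0.45 (0.12 without shPogz replicate 2). Mbp stood at 1190 and 1212 CPM against 1294 and 1823 CPM (0.38, SE 0.35), so that its height came from replicate 2.

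Vascular markers had a median of -0.089 for endothelium and -0.21 for mural cells (-0.048 and -0.11 without shPogz replicate 2). Meningeal markers had one of 0.1, which was -0.147 without GFP replicate 1 and 0.445 without GFP replicate 2. Tagln, a contractile protein of smooth muscle, stood at 9.97 and 12.6 CPM against 8.82 and 6.6 CPM (-0.55, SE 0.21). Igf2, made by the meninges and vessels, stood at 21 and 24.8 CPM against 20.7 and 14.4 CPM (-0.39, SE 0.17). Precursors of oligodendrocytes had a median near 0 (-0.0071, or 0.011 with RLE scaling). Immediate early genes, which report neuronal activity, had a median of 0.1 over 22 (0.303 without GFP replicate 1, -0.0842 without GFP replicate 2). Btg2 (0.45, SE 0.14) and Gadd45b (0.83, SE 0.26) lay above the controls, and Nptx2 (-0.52, SE 0.23) and Bdnf (-0.41, SE 0.21) had values below 0. Without GFP replicate 1 the values were 0.53 for Btg2, 0.726 for Gadd45b, -0.0884 for Nptx2 and -0.0518 for Bdnf.

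Cholesterol synthesis had 1 of 21 tested genes above 0 and a median of -0.2 (-0.036 without shPogz replicate 2), with 8 below the controls in both libraries and 5 lower at an unadjusted p under 0.05. Dhcr7, the last enzyme of one route to cholesterol, stood at 26.8 and 22.6 CPM with GFP and 19.1 and 16.9 CPM with the hairpin (-0.45, SE 0.13). Lss, which closes the sterol rings, stood at 32.4 and 31.8 CPM against 27.4 and 24 CPM (-0.32, SE 0.12). Tm7sf2, a sterol reductase, stood at 16.6 and 14.8 CPM against 13 and 10.03 CPM (-0.44, SE 0.16). Ebp was the member above 0. Genes of oxidative phosphorylation had a median of -0.08 over 75 (-0.05 without shPogz replicate 2), and clock genes one of -0.15 over 18 (-0.052 without it), with Clock at -0.31 (SE 0.13). Ribosomal protein genes, whose many copies make their counts uncertain, had a median of 0.091 over 80 (-0.0052 without shPogz replicate 2). Replication genes had 11 of 24 above the controls in both libraries and a median of 0.57 (0.318 without GFP replicate 1, 1.02 without GFP replicate 2 and 0.25 without shPogz replicate 2), with GFP replicate 2 0.58 above GFP replicate 1. Mcm3, of the replicative helicase, stood at 4.74 and 7.02 CPM against 7.74 and 13.3 CPM (0.82, SE 0.29).

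Among genes that work with Pogz and Adnp in heterochromatin, 16 of 24 had overlapping groups, against 10395 of all 17415 tested genes. Of the 24, 0 were past an unadjusted p of 0.05 (6.7% of all tested genes were). Their median was -0.034 (0.028 without shPogz replicate 2). The histone chaperone gene Daxx, which interferon also induces, stood at 25 and 23 CPM with GFP and 25.1 and 42.8 CPM with the hairpin (0.5, SE 0.23). Ehmt2, a histone H3 methyltransferase, stood at 163 and 161 CPM against 152 and 135 CPM (-0.18, SE 0.11), and Trim28, a corepressor of zinc finger proteins, at 112 and 117 CPM against 128 and 124 CPM (0.14, SE 0.10). Chromatin and transcription genes linked to autism risk had 12 of 32 below the controls in both libraries, 3 above, and a median of -0.12 (-0.058 without shPogz replicate 2). Mbd5 stood at 92.8 and 78.8 CPM against 72.9 and 63.9 CPM (-0.32, SE 0.15), and Asxl3 at 30.6 and 22.8 CPM with GFP and 22.3 and 17.4 CPM with the hairpin (-0.42, SE 0.19). Clustered protocadherins had a median of -0.11 over 57 tested (-0.00084 without shPogz replicate 2), and replication-type histone genes one of 0.23 over 55, which was -0.0247 without GFP replicate 1 and 0.636 without GFP replicate 2. The control libraries themselves differed by 0.78 in the median of the histone list, more than shPogz did from them.

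The 12 genes with the smallest p on the lower side were taken from those with both shPogz libraries below both controls. They included the cholesterol gene Dhcr7 and the AMPA receptor gene Cacng8. Ano8, which tethers membranes, stood at 47.3 and 45 CPM against 36.7 and 30.5 CPM (-0.45, SE 0.12). Zfp579, a zinc finger gene, stood at 6.3 and 5.44 CPM against 3.67 and 3.35 CPM (-0.74, SE 0.20). In Zfp579 the libraries within each group lay close together, and shPogz replicate 1 was already clear of the controls. The choice by p and by separated groups favours both traits. Dlg5, Rhov, Mybpc3, Slc25a34, Pacsin3, 4833422C13Rik and Rsph3b were also among them, and Mybpc3 had the lowest value named here (-1.11, SE 0.31). DESeq2 called 0 genes lower with all libraries. It did call genes lower without GFP replicate 2 or without shPogz replicate 1, in fits that left 1 library in a group.

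The difference between the shPogz and shAdnp responses, each against its own controls, was tested in the same model. It passed for 0 of 17415 genes in edgeR (smallest adjusted p = 0.978), with 612 genes at an unadjusted p under 0.05 (3.51%), 192 with the higher value in shPogz (1.1%) and 420 with the lower (2.41%). Interferon-stimulated effectors had medians of 1.85 in shPogz and 1.06 in shAdnp. Of the 48 differences, 1 was past an unadjusted p of 0.05. Without shPogz replicate 2 the shPogz median was 1.08, close to that of shAdnp. Rsad2 had log2 fold changes of 3.96 in shPogz and 1.2 in shAdnp, a difference of 2.77 (SE 1.07). Mx2 had 2.79 and 0.73, a difference of 2.06 (SE 0.88). Leaving out shPogz replicate 2 gave shPogz values of 2.73 for Rsad2 and 1.96 for Mx2. Microglial genes had the reverse order. The median of the disease-associated list was 0.94 in shPogz and 1.56 in shAdnp, and that of complement 0.95 and 1.54. These shPogz medians were 0.373 and 0.378 without shPogz replicate 2. Apoe had -0.12 and 0.9, a difference of -1.02 (SE 0.36). In shAdnp replicate 1 the ribosomal RNA precursor Rn45s held 7.62% of the counts. It held 0.74% in shAdnp replicate 2 and at most 0.63% in the Pogz set. What that library contributed to these differences and to the shared spread was not tested.

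ATF4-list genes differed between the experiments in 5 of 35 members with the higher value in shPogz and 2 with the lower, at an unadjusted p under 0.05, and had medians of 0.4 and 0.17. Chac1 had 1.42 in shPogz and 0.13 in shAdnp, a difference of 1.29 (SE 0.40). Slc7a1 had 0.54 and -0.042, a difference of 0.58 (SE 0.20). Without shPogz replicate 2 the shPogz values were 0.25 for the list median, 0.848 for Chac1 and 0.353 for Slc7a1. The tRNA synthetase medians were 0.18 and -0.026, and those of the chaperones of the endoplasmic reticulum 0.21 and -0.031. In shPogz these medians were 0.0958 and 0.114 without replicate 2. Striatal markers had 0.56 and -0.11, with 3 of 17 differences past an unadjusted p of 0.05, and Pde10a had a difference of 1.17 (SE 0.33). Meningeal markers had 0.1 and 0.77, and 6 of 15 differences were lower in shPogz at an unadjusted p under 0.05. Igf2 was the largest of these relative to its error, at -1.28 (SE 0.24). Without replicate 2, shPogz had 0.245 for the striatal median and for Pde10a, 0.0416 for the meningeal median and -0.128 for Igf2. None of the differences named here passed after adjustment in edgeR. DESeq2 called 2 genes in this test over all genes, both lower.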

How the data were processed

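Read counts per gene symbol, from RNA sequencing, were deposited for each library. The submitters' processing notes list STAR, featureCounts, DESeq2 and mm10 among what the authors used to make the counts, and the labels' protocols list Cutadapt and TopHat2. Strand setting and handling of reads with several matches are not recorded there, so near-identical, overlapping and antisense genes are uncertain. Rows with a blank identifier (2) or a 5-digit date serial (25; 0.306% to 0.321% of the counts in these 4 libraries) were left out.

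The main test was edgeR 4.0.16 in R 4.3.3 on all 8 libraries with 1 mean per group, TMM scaling, filterByExpr by group at a minimum count of 10 and the robust quasi-likelihood fit (4 residual degrees of freedom, common biological coefficient of variation 0.171), adjusted over 17415 genes by Benjamini-Hochberg at 0.05. The code was tested on simulated data. The SE is the log2 fold change divided by the square root of F. The labels call the libraries biological duplicates. With 2 a group, p-values lean on a variance estimate that all groups share. No pair of libraries was alike within counting noise. Same-numbered libraries did not deviate together (r = 0.047), so the numbers were not treated as pairs.

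The members and gene lists were chosen with earlier results of these data known. The genes named were Pogz, Adnp and Ash1l, 12 genes in each direction with the smallest p among those with a mean of at least 1 CPM and groups that did not overlap, and up to 8 members per list with the smallest p, plus members on the other side of a list where there were at most 5. Not all of these are printed, and some genes are not reported here. Slc17a7, Ttr and Cd3e belong to a set of defining markers set down with the gene lists, of which not all are printed. Any other genes were chosen after their values were seen. A small p favours genes with close controls and separated groups, so remarks on those traits describe the genes and lend no support. Gene coordinates are from GENCODE vM21, which holds 16264 of the 17415 symbols, and upstream sequences from RefSeq (GRCm38.p6, the assembly of mm10), of which the 250 bases before the start were searched. The alternatives were DESeq2 1.42.0, limma-voom (limma 3.58.1), RLE and upper quartile scaling, 2 other low-count filters, only the 4 libraries, a block for the replicate number, and leaving out each library.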

Additional observations from a re-analysis of the deposited data

How the results depend on the processing

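With 2 libraries a group, the counts of calls depended on the tool and on single libraries. The count past the adjusted p was 0 in edgeR and limma-voom, 100 by DESeq2 (all higher) and 31 with the replicate block (all higher). Leaving out 1 library left 1 library in a group, whose spread then came from the other groups. Counts of calls from such fits differed widely and are not given. They were far larger without shPogz replicate 1 than without shPogz replicate 2. The count at an unadjusted p under 0.05 was 1167, and 209 (without shPogz replicate 2) to 2989 (without shPogz replicate 1) with 1 library left out. The share on the higher side was 60.5% with all libraries, 71% by DESeq2 and 74.7% with the filter of at least 1 CPM. The higher side no longer held the larger share without shPogz replicate 1. With only the 4 libraries of the Pogz set the test put 972 genes past it, 78.1% on the higher side. DESeq2 was also run without each library, an alternative added after seeing the data. Its counts are left out for the same reason, and they too depended on which library was dropped. The difference between the responses passed for 0 genes in edgeR and 2 by DESeq2 (both lower). The cause of the dependence on tool and library was not tested.

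Medians of the interferon lists kept their direction in each alternative. Over all 49 lists, 31 of 588 alternatives moved the median by more than the spread between replicates. That spread was the SD of the medians of the 2 shPogz libraries, so leaving out either could hardly exceed it. The effector median without shPogz replicate 2, 1.08, counted as not moved. The number 31 therefore does not measure how firm the medians are. The median of 11 lists changed sign with 1 library left out. These lists were upper and deep layer markers, meningeal markers, oligodendrocyte precursors, choroid plexus markers and immediate early genes. The others were p53 targets, ribosomal proteins, replication-type histones, heterochromatin partners and sex-linked genes. The effector median was 1.85, and 1.08 to 2.35 without 1 library. Pogz was -0.527 to -0.113 without 1 library.

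Of 1966 single-gene alternatives over 164 genes, 1856 kept their sign and side of the threshold, 92 passed it and 18 changed sign, all of genes with no adjusted call. Farsa (0.00594) and Vars (0.00218) did so with the 1 CPM filter. Without 1 library the ranges were -0.295 to 0.0846 for Adnp, -0.236 to 0.0281 for Apoe, -0.129 to 0.0329 for Atf6, -0.541 to 0.499 for Cxcr3, -0.0348 to 0.0715 for Dlg1, -0.107 to 0.0752 for Farsa, -0.0662 to 0.259 for Homer3, -0.215 to 0.0296 for P2ry12, -1.16 to 0.165 for S100a8, -0.194 to 0.0215 for Sel1l, -0.421 to 0.00046 for Slc17a7 and -0.125 to 0.101 for Vars.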

Other observations

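Of the 100 genes that DESeq2 called higher in shPogz, 55 were in none of the lists, and those named here were chosen after their values were seen. Slfn4, of the Schlafen family, stood at 0.389 and 1.42 CPM with GFP and 11.2 and 43.3 CPM with the hairpin. Treml2, a myeloid receptor, stood at 1.34 and 2.70 CPM against 5.08 and 12.1 CPM. Siglec1, a sialic acid receptor of macrophages, stood at 2.94 and 3.16 CPM against 6.32 and 14.4 CPM. Grn, the gene of the lysosomal protein progranulin, was abundant, at 69.2 and 97.4 CPM against 122 and 226 CPM. Both shPogz libraries lay above both controls in each, with replicate 2 the highest.

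Also among the 55, Cd36, a fatty acid transporter, stood at 1.91 and 3.35 CPM against 5.26 and 15 CPM, and Plin2, which coats lipid droplets, at 9.16 and 10.3 CPM against 15.2 and 27.5 CPM. Xdh, which makes uric acid, stood at 12 and 10 CPM against 17.6 and 37.6 CPM. Nampt, which makes a precursor of NAD, stood at 78.4 and 86.6 CPM against 104 and 166 CPM. Serpinb9, an inhibitor of granzyme B, stood at 13 and 13.8 CPM against 20.3 and 47.4 CPM. The long noncoding RNA Neat1, a scaffold of nuclear paraspeckles, stood at 34.4 and 53.9 CPM against 60.1 and 100 CPM.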
